A study of Felis catus with 6 samples.

Results

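Genes of lipid metabolism outside sterol synthesis were described in lesions of feline chronic gingivostomatitis (FCGS) and in healthy oral mucosa of the same cats. They were found by gene symbol: every gene whose symbol starts with 1 of 31 prefixes of lipid enzyme families was taken from the rows at hand of the study's list of genes at least 2-fold different between the averaged tissues, and ALOXE3 was set aside. This gave 27 genes of 1981 rows at hand, 10 higher and 17 lower in lesions. The files hold 21529 identifiers in all. The genes were therefore chosen by the lesion to healthy difference itself, and that difference is given below as a description: counts of genes passing a fit of it are printed beside the share of all identifiers, with nothing read from them. Another 328 rows of that list, which hold its steepest falls, were not analysed here, so a gene of these families that fell more steeply would not be among the 27. For 15 prefixes (among them FADS, SCD, PNPLA, CERS, FABP and PTGS) no row at hand began with the prefix.

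The tissue groups were FCGS lesions (n = 3) and adjacent healthy mucosa (n = 3), with 1 biopsy of each from the cats named Bart, Jerome and Sadie. FCGS is a chronic, immune-mediated inflammation of the mouth lining of cats. All animals had FCGS, had no teeth and had not responded to tooth extraction, and were negative for the feline immunodeficiency and leukemia viruses. At biopsy all received the pain drug buprenorphine, and none received immunosuppressive drugs or antibiotics. The healthy mucosa thus came from diseased cats, and no library came from a cat without FCGS. The ages of these cats were not given in the sources used here. Whole biopsies were used, so each library mixes epithelium, stroma, infiltrating leukocytes and, in some, muscle, and a gene's lower level can mean fewer cells of a type or less RNA per cell, which cannot be told apart. Expression was measured by strand-specific sequencing of polyadenylated RNA and is given in FPKM, the number of sequenced fragments divided by transcript length and by the size of the library.

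Fatty acids are made from acetyl units by fatty acid synthase, lengthened by elongases and activated by joining them to coenzyme A. Acyltransferases then place the activated chains on glycerol to build triglycerides and membrane phospholipids, and phospholipases cut the chains or head groups off again, which releases precursors of leukotrienes and other lipid signals. In the stratified epithelium of skin and mouth, keratinocytes make large amounts of lipid for the barrier, while leukocytes use the same families of enzymes for membranes and signalling. For some genes the symbol alone does not tell what the product does: ALOX5AP encodes a membrane protein that hands arachidonic acid to a lipoxygenase, PLD4 is known in mouse and human as a nuclease of endolysosomes, and HSD11B1L and HSDL2 are named for their sequence.

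Library totals ranged between 1382122 and 1903773 FPKM and were lowest in both libraries of Bart. The number of reads was not in the files. Marker genes had a name only if the study listed them as differing at least 2-fold. A marker without a name cannot be placed, so the marker counts below describe the named genes only. Every macrophage and monocyte marker that had a name (12 of 15) was higher in lesions on average, and their summed level was 1885, 2406 and 2152 FPKM in the lesions of Bart, Jerome and Sadie, against 321, 808 and 536 FPKM in their healthy mucosa. T and B cell markers (17 of 18 named, all higher) summed to 679, 2003 and 3348 FPKM in lesions, against 100, 475 and 250 FPKM in healthy mucosa. Epithelial markers had a name for 14 of 29, of which 11 were lower, and without KRT4 the remaining 13 summed to 98.7, 372 and 335 FPKM in lesions, against 847, 505 and 552 FPKM in healthy mucosa. KRT4 itself, a keratin of wet stratified epithelium, was listed at 8.99, 2534 and 569 FPKM in lesions, against 2089, 0 and 0 FPKM in healthy mucosa. With KRT4 the list's sum was 108, 2905 and 904 FPKM in lesions, against 2936, 505 and 552 FPKM in healthy mucosa. That sum was thus lower in the lesion of Bart and higher in the lesions of Jerome and Sadie. Neutrophil markers had a name for 8 of 10, of which 7 were higher on average and summed to 479, 136 and 88.3 FPKM in lesions, against 21.5, 23.4 and 6.51 FPKM in healthy mucosa. The other one, S100A8, which keratinocytes also make, was lower, at 6832, 16030 and 1962 FPKM in lesions, against 41366, 25490 and 5724 FPKM in healthy mucosa, and with it the list's sum was lower in the lesion of every cat. Skeletal muscle markers (15 of 15 named) summed to 21.1, 5879 and 5242 FPKM in lesions, against 5.54, 17.3 and 2597 FPKM in healthy mucosa, so the muscle content split the libraries in a way of its own, with both libraries of Bart and the healthy one of Jerome low. The part of these cell types in the lipid gene values was not tested.

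**Figure D1:**
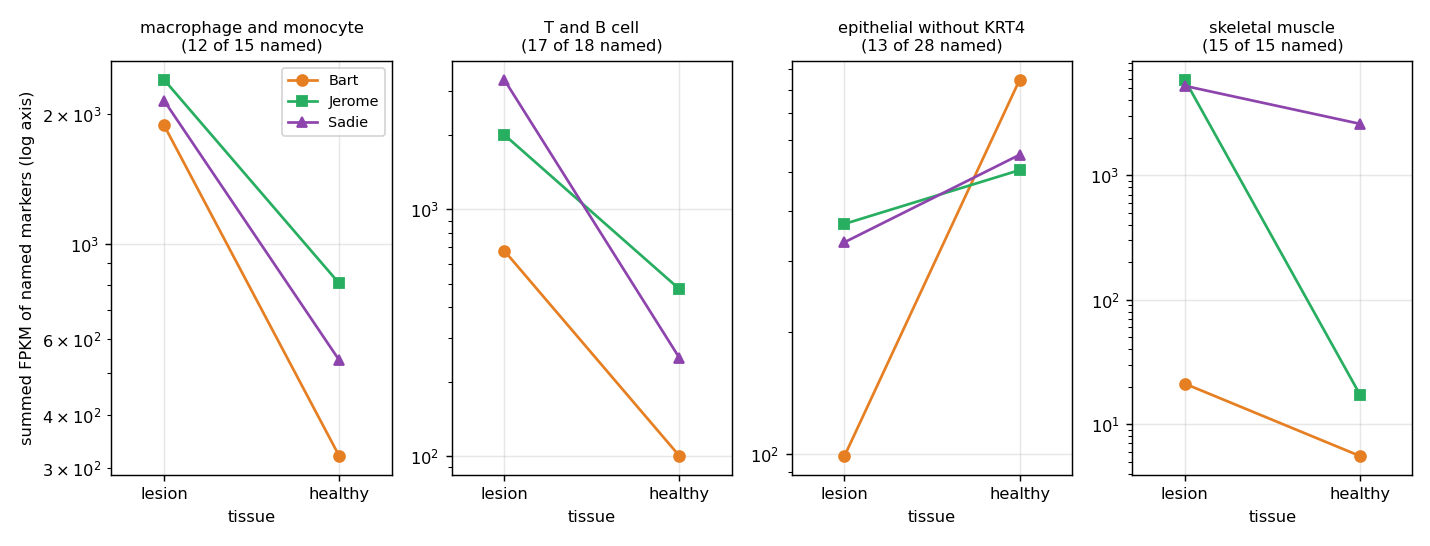
Summed FPKM of the named markers of macrophages and monocytes, T and B cells, epithelium (without KRT4) and skeletal muscle in each library, on a log axis; each line joins the lesion (left) and the healthy mucosa (right) of 1 cat. The leukocyte sums are higher and the epithelial sum without KRT4 lower in the lesion of every cat. With KRT4, which is not drawn, the epithelial sum is higher in the lesions of Jerome and Sadie. Muscle is high in the lesions of Jerome and Sadie and in the healthy mucosa of Sadie (2597 FPKM).

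The 17 lower genes were the more abundant ones in healthy mucosa. The choice of genes used these same levels, so this order follows in part from the choice and is a description only. Their mean levels there had a median of 49.2 FPKM, against 11.7 FPKM over all 13327 identifiers tested (those reaching 1 FPKM in 3 or more of the 6 libraries), while the 10 higher genes had a median of 8.44 FPKM in healthy mucosa. In lesions the medians of these sets lay close together, at 21.3 FPKM for the higher and 20.7 FPKM for the lower genes, with 11.8 FPKM over all identifiers. The differences, lesion minus healthy on the log2 scale with values below 1 FPKM raised to 1, ran over 1.15 to 2.65 in the higher genes (median 1.54) and -2.14 to -1.04 in the lower genes (median -1.50), with a median of -0.07 over all identifiers. Just inside the 2-fold limit stood PLD2, LPCAT3 and HSDL2, which were 2.05, 2.07 and 2.08 times lower in lesions, and ACSL5, which was 2.21 times higher. Genes just outside the limit carry no name in the list. The range and median of the lower genes may be cut short by the rows not at hand, which hold the steepest falls. The sizes of rises and falls are therefore not compared.

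Direction was shared by the cats. The sign of the difference was the same for all cats in 26 of the 27 genes, against 63.2% of all identifiers, and the exception was CYP24A1, which lay under 1 FPKM in both libraries of Bart. The lesion values lay wholly outside the range of the healthy values in 21 genes, 7 of the higher and 14 of the lower ones, against 38.6% of all identifiers (16.7% with lesions higher, 21.9% with lesions lower). A difference of at least 2-fold in every cat was seen in 4 higher genes (ACSS1, ACSL4, AGPAT4 and PLD4) and 7 lower genes (FASN, ACOT11, DGAT1, PLD1, LIPM, CYP27C1 and HSD17B14), against 8.81% and 6.81% of all identifiers. In limma without a term for the cat, 7 of the 27 genes passed an adjusted p of 0.05 (ACSS1 and AGPAT4 higher, and FASN, ELOVL1, ACOT11, PLD2 and HSDL2 lower), against 11.9% of all identifiers. In that fit 22 of the 27 had an unadjusted p below 0.05, against 4213 of all 13327 identifiers. With the cat as a block, pairing the libraries of each animal, 21 passed (7 higher and 14 lower), against 23.2% of all identifiers. Without the lesion or the healthy mucosa of Sadie, or without the healthy mucosa of Jerome, none passed in the fit with tissue alone. In these settings 18, 17 and 19 had an unadjusted p below 0.05, against 3276, 3260 and 3091 of all 13327 identifiers. Without the lesion of Bart or of Jerome 4 passed. The 6 genes that passed in neither fit were PLA2G7, ALOX5AP, SGMS2, SPHK1, CYP24A1 and CYP2S1. These counts are a description only, because the genes were picked by the same contrast.

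**Figure D2:**
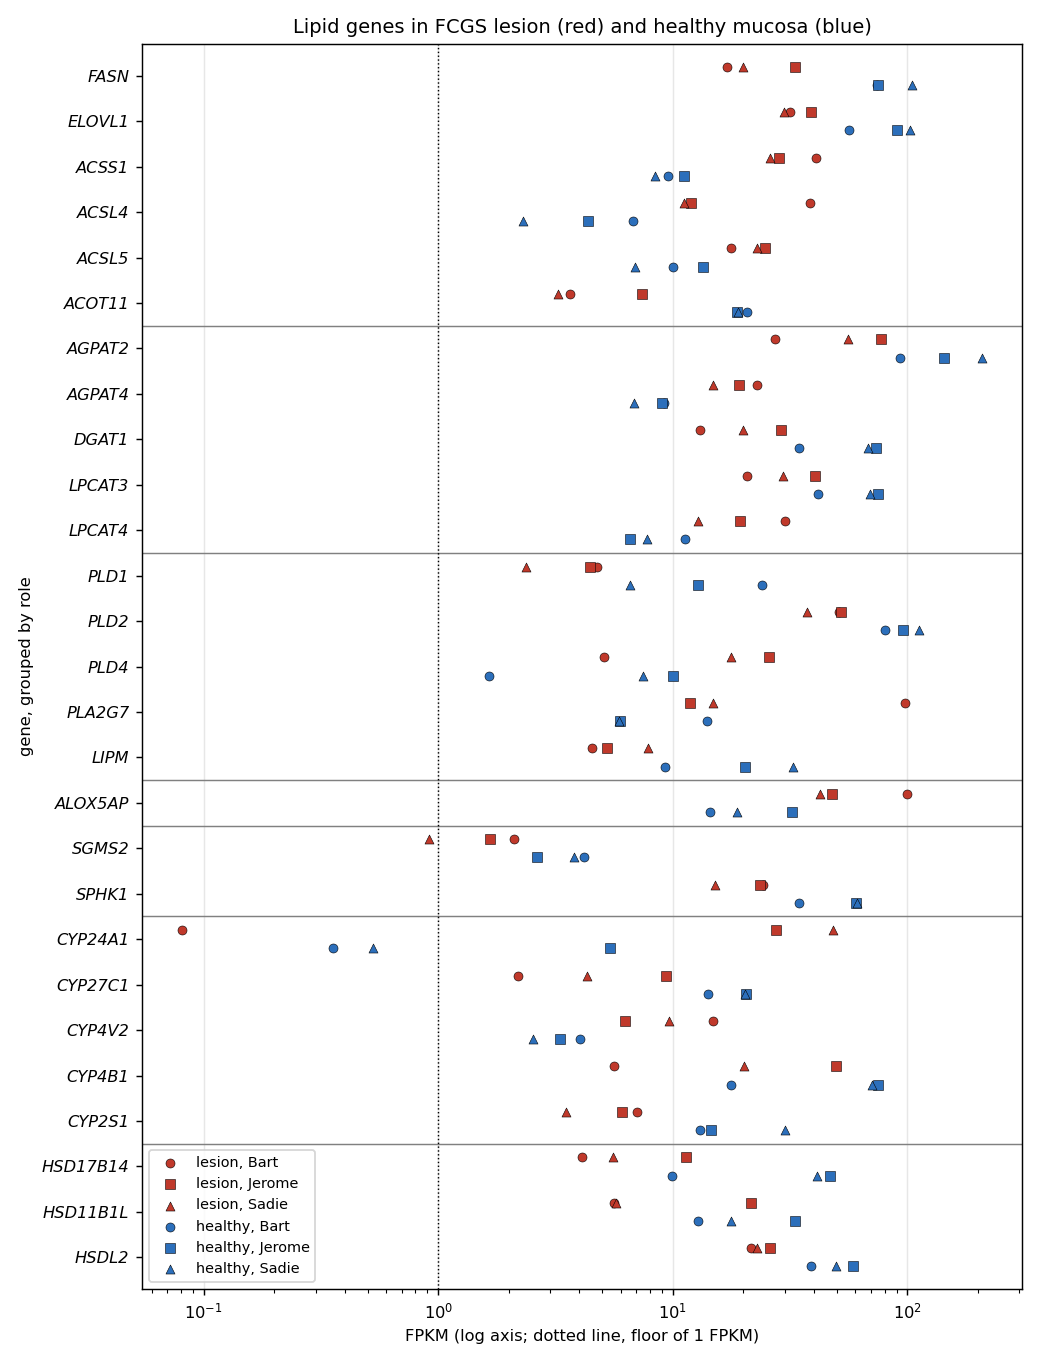
FPKM of the 27 genes in every library on a log axis, in blocks by role (fatty acid supply, acyltransferases, phospholipases and lipases, leukotriene synthesis, sphingolipid enzymes, cytochromes P450, HSD family); red symbols are lesions, drawn above the blue symbols of healthy mucosa, and the shape marks the cat. In 21 genes the red and blue symbols do not overlap, and the widest spread within a tissue is that of CYP24A1 in lesions (0.081 to 48.3 FPKM).

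Among genes of fatty acid supply, FASN, ELOVL1 and ACOT11 were lower in lesions and ACSS1, ACSL4 and ACSL5 higher. FASN (ENSFCAG00000011685), fatty acid synthase, was at 17.0, 33.2 and 20.0 FPKM in the lesions of Bart, Jerome and Sadie, against 74.0, 75.0 and 104 FPKM in healthy mucosa, a log2 difference of -1.89 ± 0.31 (SE of the fit, n = 3 libraries per tissue). ELOVL1 (ENSFCAG00000015114), the elongase of saturated very long chains, was at 31.5, 38.9 and 29.9 FPKM in lesions, against 56.5, 90.1 and 102 FPKM in healthy mucosa (log2 difference -1.28 ± 0.27). Every lesion lay below every healthy library for both genes. ACOT11 (ENSFCAG00000003983), a thioesterase that frees fatty acids from coenzyme A, had the steepest difference of the 17 lower genes, with 3.64, 7.37 and 3.23 FPKM in lesions, against 20.8, 18.8 and 18.9 FPKM in healthy mucosa (log2 difference -2.14 ± 0.36). Its healthy values were the tightest of all 27 genes, within 1.11-fold of each other.

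Of the higher genes, ACSS1 passed in both fits, and ACSL4 and ACSL5 with the cat as a block only. ACSS1 (ENSFCAG00000014545), which makes acetyl coenzyme A from acetate in mitochondria, was at 40.6, 28.3 and 26.0 FPKM in lesions, against 9.55, 11.2 and 8.42 FPKM in healthy mucosa (log2 difference 1.68 ± 0.25). ACSL4 (ENSFCAG00000006754), which prefers arachidonic acid, was at 38.3, 11.9 and 11.1 FPKM in lesions, against 6.79, 4.35 and 2.30 FPKM in healthy mucosa (log2 difference 2.08 ± 0.62). ACSL5 (ENSFCAG00000003196), which activates long chains, was at 17.6, 24.8 and 22.9 FPKM in lesions, against 10.0, 13.4 and 6.88 FPKM in healthy mucosa (log2 difference 1.15 ± 0.31). None of the 3 overlapped between the tissues. ACSL4 was highest in the lesion of Bart, where it exceeded ACSL5 at a ratio of 2.17, while the ratio was 0.481 in the lesion of Jerome and 0.486 in that of Sadie, against 0.676, 0.325 and 0.335 in their healthy mucosa. The level of both genes added together was 56.0, 36.7 and 34.1 FPKM in lesions, against 16.8, 17.7 and 9.18 FPKM in healthy mucosa.

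Among the named acyltransferases, the AGPAT and LPCAT families each held a higher and a lower gene. Relatives that changed less than 2-fold, or fell most steeply, carry no name, so the rest of each family was not seen. AGPAT2 (ENSFCAG00000011607), which makes phosphatidic acid in the endoplasmic reticulum and is the most abundant of the 27 genes in healthy mucosa, was at 27.2, 77.3 and 55.6 FPKM in lesions, against 93.0, 143 and 209 FPKM in healthy mucosa (log2 difference -1.52 ± 0.47). Its relative AGPAT4 (ENSFCAG00000000357) was at 22.9, 19.2 and 14.9 FPKM in lesions, against 9.17, 8.96 and 6.86 FPKM in healthy mucosa (log2 difference 1.18 ± 0.26). Neither overlapped between the tissues. The ratio of AGPAT4 to AGPAT2, which does not depend on how a library was scaled, was 0.839, 0.248 and 0.268 in the lesions of Bart, Jerome and Sadie, against 0.0985, 0.0624 and 0.0329 in their healthy mucosa. AGPAT2 stayed the more abundant of the pair in all 6 libraries, and the summed level of both was lower in lesions, at 50.1, 96.4 and 70.5 FPKM, against 102, 152 and 216 FPKM in healthy mucosa, with all lesions below all healthy libraries.

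The named lysophospholipid acyltransferases showed the same division. LPCAT3 (ENSFCAG00000004289), which puts polyunsaturated chains into phosphatidylcholine, was at 20.6, 40.2 and 29.5 FPKM in lesions, against 41.6, 75.3 and 69.3 FPKM in healthy mucosa (log2 difference -1.05 ± 0.34). LPCAT4 (ENSFCAG00000001741) was at 30.2, 19.4 and 12.9 FPKM in lesions, against 11.3, 6.56 and 7.78 FPKM in healthy mucosa (log2 difference 1.24 ± 0.39). Both kept the tissues apart, though for LPCAT3 only by the gap between 40.2 FPKM in the lesion of Jerome and the healthy level of Bart, 41.6 FPKM. The ratio of LPCAT4 to LPCAT3 was 1.46, 0.483 and 0.436 in lesions, against 0.271, 0.0872 and 0.112 in healthy mucosa, so that LPCAT4 was the more abundant in the lesion of Bart alone. Their sum, 50.8, 59.6 and 42.3 FPKM in lesions, against 52.9, 81.8 and 77.1 FPKM in healthy mucosa, overlapped between the tissues. DGAT1 (ENSFCAG00000007725), which adds the last chain of a triglyceride, was at 13.1, 29.0 and 19.9 FPKM in lesions, against 34.4, 73.6 and 67.8 FPKM in healthy mucosa (log2 difference -1.50 ± 0.42). In both tissues DGAT1 was lowest in Bart and highest in Jerome.

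**Figure D3:**
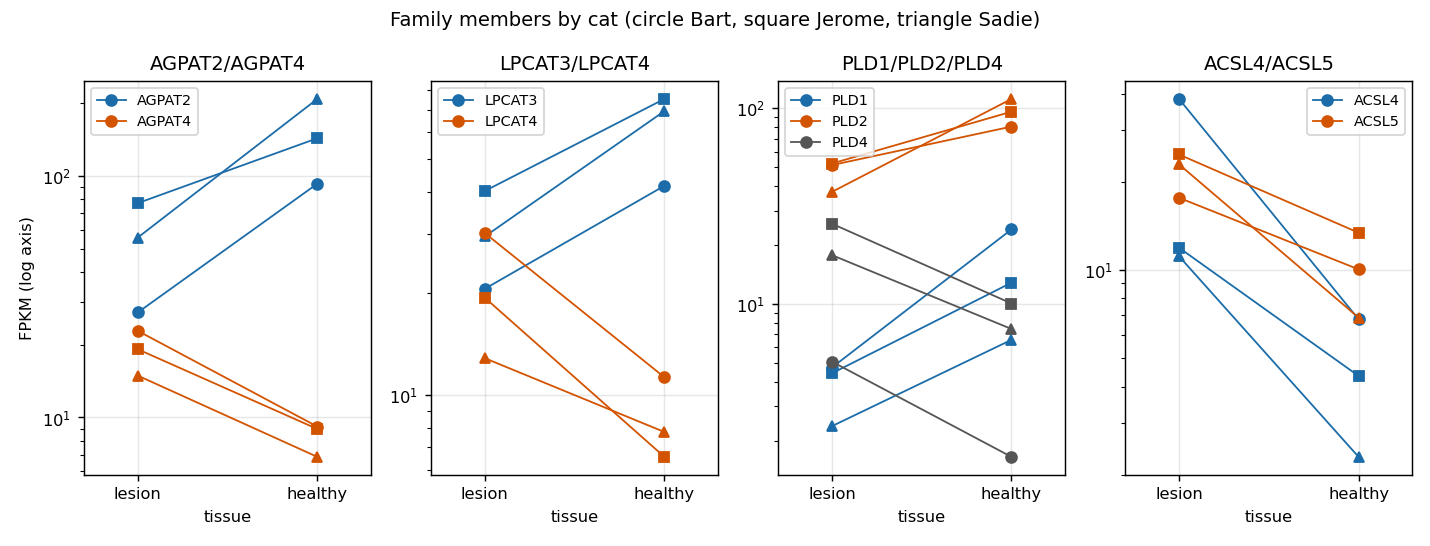
FPKM (log axis) of the AGPAT, LPCAT, PLD and ACSL genes in the lesion (left) and healthy mucosa (right) of each cat, with a colour for each gene and a symbol shape for each cat. Lines of AGPAT2, LPCAT3, PLD1 and PLD2 climb toward healthy mucosa while those of AGPAT4, LPCAT4 and PLD4 descend, and both ACSL genes are higher in the lesion of every cat.

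The named phospholipase D genes split as well, and the rest of that family was not seen. PLD2 (ENSFCAG00000008040), which cleaves phosphatidylcholine at the plasma membrane, was at 51.2, 52.2 and 37.4 FPKM in lesions, against 80.6, 96.0 and 112 FPKM in healthy mucosa (log2 difference -1.04 ± 0.22). PLD1 (ENSFCAG00000007116), its relative on internal membranes, was at 4.73, 4.42 and 2.37 FPKM in lesions, against 24.0, 12.8 and 6.56 FPKM in healthy mucosa (log2 difference -1.78 ± 0.54). Both kept the tissues apart, and PLD1 was highest in Bart in both of them. PLD4 (ENSFCAG00000011100) was at 5.07, 25.7 and 17.8 FPKM in lesions, against 1.65, 10.0 and 7.44 FPKM in healthy mucosa (log2 difference 1.41 ± 0.89). The tissues overlapped for PLD4 because the lesion of Bart lay below the healthy mucosa of Jerome and Sadie, but within each cat the lesion was higher, by 1.62 on the log2 scale in Bart, 1.35 in Jerome and 1.25 in Sadie. Of the 12 named macrophage and monocyte markers, 7 were lowest and 4 highest in Bart among lesions. Among healthy libraries 11 were lowest and 0 highest in Bart. The summed T and B cell markers were also lowest in Bart in both tissues. The part of either set of markers in the level of PLD4 was not tested. The ratio of PLD4 to PLD2 was 0.0990, 0.492 and 0.475 in lesions, against 0.0205, 0.105 and 0.0667 in healthy mucosa, higher in the lesion of each cat.

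PLA2G7 (ENSFCAG00000009105) encodes a secreted enzyme that inactivates platelet activating factor. It was at 98.1, 11.8 and 14.9 FPKM in lesions, against 13.9, 5.95 and 5.89 FPKM in healthy mucosa (log2 difference 1.71 ± 0.87). The lesion of Bart stood 8.32 times above that of Jerome, and the healthy mucosa of Bart lay between the lesions of the other cats. Without the lesion of Bart the difference was 0.75, under 2-fold. LIPM (ENSFCAG00000007182), a lipase of differentiating human keratinocytes, was at 4.51, 5.24 and 7.85 FPKM in lesions, against 9.29, 20.4 and 32.4 FPKM in healthy mucosa (log2 difference -1.68 ± 0.50). Its lesions lay close together and its healthy libraries spread 3.49-fold, with no overlap.

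ALOX5AP (ENSFCAG00000007541), the partner protein of leukotriene synthesis, was the most abundant of the 27 genes in lesions by its mean. It was at 99.7, 47.6 and 42.4 FPKM in lesions, against 14.4, 32.2 and 18.8 FPKM in healthy mucosa (log2 difference 1.51 ± 0.44), with no overlap. Bart had the highest lesion and the lowest healthy value, and the difference within the cat was 2.79 on the log2 scale in Bart, 0.56 in Jerome and 1.17 in Sadie. Of the 8 named neutrophil markers, 5 had their highest lesion value in Bart, 2 in Jerome (S100A8 and MCEMP1) and 1 in Sadie (LTF), and their part in the level of ALOX5AP was not tested.

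Of the sphingolipid enzymes, SPHK1 and SGMS2 had lesion values below all healthy ones but passed in neither fit. SPHK1 (ENSFCAG00000005455), which makes sphingosine phosphate, was at 24.2, 23.6 and 15.2 FPKM in lesions, against 34.7, 60.5 and 61.0 FPKM in healthy mucosa (log2 difference -1.29 ± 0.32). SGMS2 (ENSFCAG00000012289), a sphingomyelin synthase of the plasma membrane, was at 2.11, 1.66 and 0.916 FPKM in lesions, against 4.18, 2.64 and 3.78 FPKM in healthy mucosa (log2 difference -1.19 ± 0.37). SGMS2 had the lowest lesion mean of the 27 genes, and its lesion value in Sadie lay under the floor of 1 FPKM.

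The 5 cytochromes P450 did not move together. CYP24A1 (ENSFCAG00000002452), which inactivates vitamin D, was at 0.081, 27.6 and 48.3 FPKM in lesions, against 0.357, 5.41 and 0.530 FPKM in healthy mucosa. It had the largest log2 difference of the 27 genes, 2.65, and the largest error, ± 1.57: it was nearly absent from both libraries of Bart, and the difference was 2.35 in Jerome and 5.59 in Sadie, in which the healthy value was raised to the floor. CYP4V2 (ENSFCAG00000001547), a fatty acid hydroxylase, was at 14.8, 6.25 and 9.64 FPKM in lesions, against 4.04, 3.31 and 2.53 FPKM in healthy mucosa (log2 difference 1.58 ± 0.39), with no overlap.

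The other 3 were lower in lesions. CYP27C1 (ENSFCAG00000013628), a retinoid desaturase of human skin, was at 2.19, 9.36 and 4.31 FPKM in lesions, against 14.1, 20.5 and 20.4 FPKM in healthy mucosa (log2 difference -2.02 ± 0.54). CYP2S1 (ENSFCAG00000013094), a P450 of human epithelia, was at 7.05, 6.06 and 3.50 FPKM in lesions, against 13.0, 14.5 and 30.2 FPKM in healthy mucosa (log2 difference -1.75 ± 0.44). These pairs of tissues did not overlap. CYP4B1 (ENSFCAG00000002762), a monooxygenase of the fatty acid hydroxylase family, was at 5.62, 49.6 and 20.1 FPKM in lesions, against 17.7, 74.8 and 70.8 FPKM in healthy mucosa (log2 difference -1.35 ± 0.93). Its tissues overlapped because the healthy mucosa of Bart lay below the lesions of Jerome and Sadie, and without the lesion of Bart the difference was -0.52.

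The HSD genes were all lower in lesions. HSD17B14 (ENSFCAG00000007367), which oxidises steroids in human cells, was at 4.12, 11.4 and 5.54 FPKM in lesions, against 9.95, 46.6 and 41.2 FPKM in healthy mucosa (log2 difference -2.07 ± 0.70). HSD11B1L (ENSFCAG00000011837) was at 5.64, 21.5 and 5.70 FPKM in lesions, against 12.9, 33.1 and 17.7 FPKM in healthy mucosa (log2 difference -1.15 ± 0.63). For each of them the lesion of Jerome lay above the healthy mucosa of Bart, so the tissues overlapped. HSDL2 (ENSFCAG00000014366), a peroxisomal protein, was at 21.5, 25.8 and 22.9 FPKM in lesions, against 38.8, 58.9 and 49.7 FPKM in healthy mucosa (log2 difference -1.05 ± 0.22). Its lesions were the tightest of the 27 genes, within 1.20-fold, and did not overlap with healthy mucosa.

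**Figure D4:**
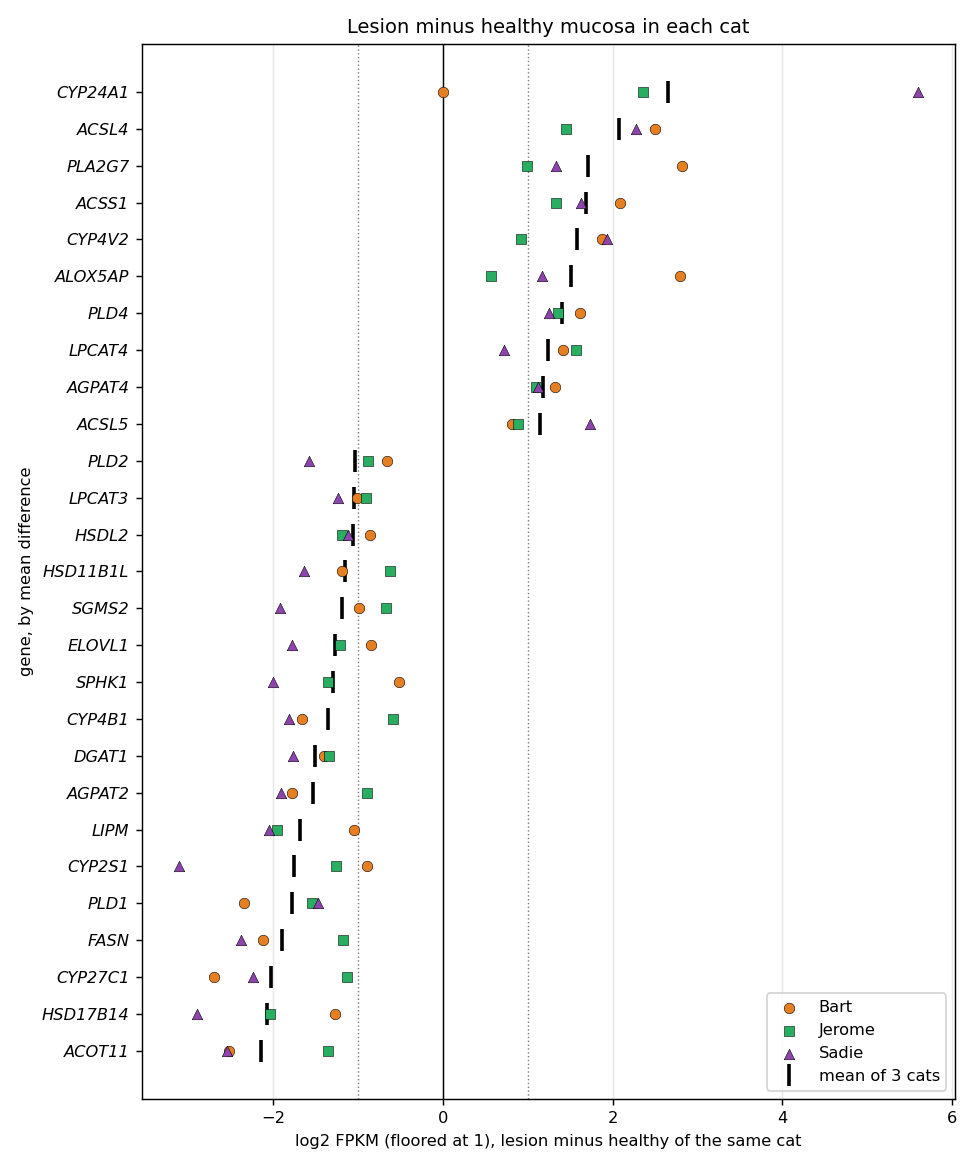
Log2 difference, lesion minus healthy mucosa of the same cat, for each of the 27 genes, with values below 1 FPKM raised to 1; coloured symbols are the cats, black bars the mean of the cats, and dotted lines a 2-fold difference. All symbols of a gene lie on 1 side of 0 except CYP24A1 in Bart, and Sadie lies farthest from 0 in 14 of the 17 lower genes.

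The size of the difference varied between cats. Sadie showed the largest difference of the cats in 14 of the 17 lower genes (82.4%), against 47% of all identifiers at least 2-fold lower in lesions. The median over the lower genes was -1.91 in Sadie, -1.19 in Jerome and -1.19 in Bart. In the higher genes the largest difference was in Bart in 6 of 10 (60%), against 50.4% of all identifiers at least 2-fold higher. Jerome showed the smallest difference in 9 of the 17 lower genes and 6 of the 10 higher ones, against 54.7% of all identifiers at least 2-fold lower and 43.5% of those at least 2-fold higher. These shares are descriptions over genes measured in the same libraries.

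Differences between cats, which the choice of genes did not use, were tested with the moderated F test of limma in a model with tissue and cat. None of the 27 genes passed an adjusted p of 0.05, against 0.0075% of all identifiers (1 of 13327). At an unadjusted p below 0.05 there were 11 of the 27, against 20.7% of all identifiers: ACSL4, AGPAT2, DGAT1, LPCAT3, PLD1, PLD4, PLA2G7, LIPM, CYP4B1, HSD17B14 and HSD11B1L. The smallest p was that of PLD4 (unadjusted p = 0.000701, adjusted p = 0.138 in limma), followed by CYP4B1 (unadjusted p = 0.00415, adjusted p = 0.146 in limma). PLD4 stood 2.07 on the log2 scale lower in the lesion of Bart than in the mean of the lesions of Jerome and Sadie, and 2.39 lower in healthy mucosa. For CYP4B1 these gaps were 2.49 and 2.04. PLA2G7 was higher in Bart in both tissues, by 2.89 in lesions and 1.23 in healthy mucosa, and ACSL4 by 1.74 and 1.10.

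The order of the cats was partly common to the genes. Of the 17 lower genes, 14 had their lowest healthy value in Bart (82.4%), against 54.2% of all identifiers at least 2-fold lower and 43.5% of all tested, and with the library medians aligned the count was again 14 (13 after quantile normalization). The lowest value of both tissues was in Bart in 10 of them, against 39.3% of all identifiers at least 2-fold lower and 29% of all tested. The highest value of both tissues was in Bart in 2 of them (11.8%), close to the 10.2% of all identifiers at least 2-fold lower, with 25.2% of all tested. In lesions, 12 of the 17 were highest in Jerome (70.6%), against 64.8% of all identifiers at least 2-fold lower. Of the 10 higher genes, 7 were highest in the lesion of Bart (70%), against 53.6% of all identifiers at least 2-fold higher. The 13 named epithelial markers other than KRT4 went both ways in healthy mucosa, where 5 had their lowest value in Bart and 7 their highest, while among lesions 11 were lowest in Bart. The part of epithelial content in the order of the lipid genes was not tested.

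**Figure D5:**
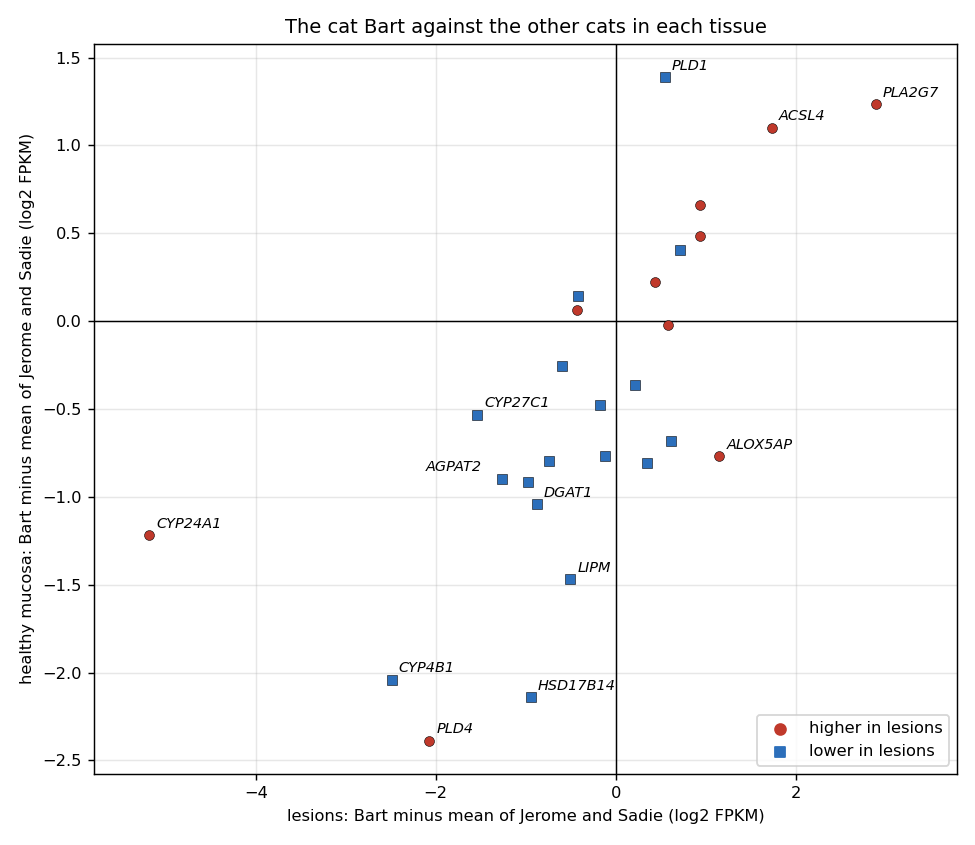
Each gene by the log2 level in Bart minus the mean of Jerome and Sadie, in lesions (horizontal) and in healthy mucosa (vertical), with values below 1 FPKM raised to 1; red circles are genes higher in lesions and blue squares genes lower in lesions, and genes more than 1 log2 unit from 0 on either axis are labelled. In 13 genes Bart lies below the other cats in both tissues and in 7 above them in both, and CYP24A1, CYP4B1 and PLD4 lie farthest left, lowest in the lesion of Bart, while PLA2G7 and ACSL4 lie farthest right.

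Other genes of these pathways were counted from 8 lists. Names were at hand only for genes that the study listed as differing at least 2-fold, so a gene without a name cannot be placed, and a direction cannot rest on these counts as independent evidence. They stand beside 5.31% of all identifiers that passed the adjusted threshold as higher and 6.61% as lower in lesions (limma, tissue only). Of 20 other genes of fatty acid synthesis, 7 had a name, of which 1 passed as higher and 2 as lower. ACACA, the cytosolic acetyl coenzyme A carboxylase that feeds FASN, was at 4.16, 2.76 and 1.49 FPKM in lesions, against 17.0, 22.1 and 5.72 FPKM in healthy mucosa. ACACB, the mitochondrial carboxylase, was at 3.90, 4.17 and 4.44 FPKM in lesions, against 1.06, 1.17 and 1.73 FPKM in healthy mucosa. NR1H3 was at 19.0, 64.6 and 45.2 FPKM in lesions, against 5.62, 19.6 and 9.99 FPKM in healthy mucosa, and its tissues overlapped. SREBF1, a transcription factor of lipogenic genes, was at 24.5, 41.8 and 33.5 FPKM in lesions, against 65.2, 114 and 129 FPKM in healthy mucosa. With the cat as a block 2 passed as higher and 4 as lower. Fatty acid oxidation had a name for 6 of 32 genes, of which 2 passed as higher and 2 as lower. There CPT1C, a carnitine palmitoyltransferase relative, was higher in lesions by 2.08 on the log2 scale, and BDH1, an enzyme of ketone body metabolism, was at 3.58, 8.67 and 6.34 FPKM in lesions, against 15.9, 35.7 and 19.6 FPKM in healthy mucosa.

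Glycerolipid and phospholipid synthesis had a name for 3 of 35 other genes, and 1 passed as lower (PIGA, of anchor synthesis). GPD1 and LPGAT1 had higher means in lesions without passing. Lipid droplet proteins and lipases had a name for 8 of 26, of which none passed as higher and 1 as lower in limma, although 4 had an unadjusted p below 0.05 and 2 in each direction passed with the cat as a block. Among them G0S2, an inhibitor of triglyceride lipase, was at 894, 78.1 and 28.6 FPKM in lesions, against 31.2, 11.2 and 11.7 FPKM in healthy mucosa, with Bart highest in both tissues. PLIN3, a droplet coat protein, was at 22.4, 50.3 and 40.0 FPKM in lesions, against 61.1, 127 and 145 FPKM in healthy mucosa, lowest in Bart in both tissues. Adipocyte markers had a name for 3 of 11 (CIDEA, LPL and CFD), and ADIPOQ and PLIN1 had none.

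Phospholipases and lysophospholipid signalling had a name for 13 of 31 other genes, of which 4 passed as higher and 4 as lower. PLCG2 was at 15.3, 21.7 and 34.4 FPKM in lesions, against 2.81, 6.55 and 3.13 FPKM in healthy mucosa. PTAFR, the receptor for platelet activating factor, was at 28.3, 27.6 and 19.7 FPKM in lesions, against 6.66, 6.44 and 4.72 FPKM in healthy mucosa. PLB1, a phospholipase B, was at 0.147, 1.47 and 0.412 FPKM in lesions, against 4.06, 7.05 and 7.27 FPKM in healthy mucosa, and PLCD1, a phospholipase C, at 26.9, 50.2 and 31.7 FPKM in lesions, against 133, 174 and 245 FPKM in healthy mucosa. In these genes the tissues did not overlap. Eicosanoid synthesis and receptors had a name for 6 of 33, of which 2 passed as higher (TBXA2R and TBXAS1, the thromboxane receptor and synthase) and 1 as lower (ALOXE3, the epidermal lipoxygenase set aside above), and with the cat as a block 4 passed as higher and 1 as lower.

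Sphingolipid enzymes and receptors for sphingosine phosphate had a name for 14 of 49 other genes, of which 6 passed as higher and 2 as lower (9 and 4 with the cat as a block). The receptor S1PR4 was at 24.5, 18.7 and 24.9 FPKM in lesions, against 2.12, 3.82 and 5.94 FPKM in healthy mucosa. SMPDL3A was at 888, 516 and 408 FPKM in lesions, against 148, 89.4 and 64.6 FPKM in healthy mucosa. SPTLC3, a subunit of the first enzyme of sphingolipid synthesis, was at 1.70, 2.75 and 1.04 FPKM in lesions, against 8.87, 8.92 and 8.30 FPKM in healthy mucosa, and GLTP, a glycolipid transfer protein, was at 15.7, 24.2 and 16.7 FPKM in lesions, against 106, 85.9 and 92.5 FPKM in healthy mucosa. Like SPHK1 and SGMS2, these genes kept the tissues apart. Vitamin D and retinoid metabolism had a name for 8 of 31 other genes, of which 4 passed as lower. The others had lower means in lesions without passing, and of them CRABP1 was at 96.1 FPKM in the lesion of Sadie, against 76.4 FPKM in its healthy mucosa. RBP5 also went the other way in a cat, at 2.58 FPKM in the lesion of Jerome, against 1.78 FPKM in the healthy mucosa of Jerome. Among those that passed, RARG, a retinoic acid receptor of epithelium, was at 24.2, 38.0 and 18.8 FPKM in lesions, against 87.6, 121 and 193 FPKM in healthy mucosa, and SDR16C5, a retinol dehydrogenase, at 4.06, 6.66 and 3.66 FPKM in lesions, against 16.7, 27.8 and 22.1 FPKM in healthy mucosa.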

How the data were processed

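The authors deposited FPKM for 21529 Ensembl identifiers in each of 6 libraries. Per the submitters' processing notes, HISAT, Cufflinks, Cuffnorm and bcl2fastq were used, with no version stated, and no genome build was found in the labels, headers or methods. FPKM is already scaled for length and library size, so no count model was used, and relative FPKM per read, from values of low genes, differed up to 1.74-fold between libraries. Symbols came from the study's supplementary list: sorted tissue values of 1981 rows, floored at 1 and compared to 5 significant digits, each matched 1 identifier, and 1929 were named. The authors' fold column there was not used.

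Log2 was taken after raising values below 1 FPKM to 1. The 13327 identifiers reaching 1 FPKM in 3 or more libraries were fitted with limma 3.58.1 in R 4.3.3 with a mean-variance trend, Benjamini-Hochberg adjustment over all of them and two-sided tests, first with tissue alone, then with the cat as a block. A moderated F test gave the difference between cats. The libraries were paired because the labels give 1 cat for both tissues. Deviations from the tissue means correlated at 0.49, 0.20 and 0.41 within Bart, Jerome and Sadie. The lesion of Jerome correlated more with the healthy mucosa of Sadie (0.27) than with that of Jerome, so these values do not single out the pair of Jerome. The limma fits, but not this pairing check, were also run on simulated data. Changes as small as most of those described here were not planted there, so nothing is read from that run. Tables were made with pandas 2.3.3 and numpy 2.4.6 under Python 3.11.15, and plots with matplotlib 3.10.9.

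All 27 genes are named, with up to 4 genes of largest difference per list and up to 3 of highest level per marker list. MCEMP1, LTF, CRABP1 and RBP5 were named after their values were seen. Genes and lists were chosen with earlier results of these data known. Alternatives were another pseudocount (1 or 0.1), filter, scaling and trend, and leaving out libraries or cats. The labels give single reads of 50 bp and the study's methods paired reads, and they differ on the site of the biopsies in the mouth.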

Additional observations from a re-analysis of the deposited data

How the results depend on the processing

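Calls moved with the libraries used, and the directions of the 27 genes, which were picked by this same contrast, did not. Over all identifiers, 1588 passed in limma with tissue alone, 526 with no filter on low values, 3098 with the cat as a block (pairing), 1 to 1435 when 1 library was left out (1 without the lesion of Sadie, 9, 132 and 898 without the healthy mucosa of Sadie, Jerome and Bart, 655 without the lesion of Jerome), and 0 to 2136 when 1 cat was left out. Of the 27 lipid genes, 7 passed, 1 with no filter, 21 with the block and 0 to 11 when 1 library or cat was left out. The count of lipid genes was 4 without the lesion of Bart or of Jerome and 11 without the cat Bart, and it was 0 without the lesion of Sadie, the healthy mucosa of Jerome or of Sadie, or either of these cats. The genes with separate tissues numbered 21 under every other scale and normalization and 21 to 26 when 1 library or cat was left out. Leaving out libraries can only keep or raise this count, and another pseudocount cannot change it, so nothing on stability is read from those settings. The test between cats passed none of the 27 under any alternative, with 5 to 11 at an unadjusted p below 0.05 (5 without the lesion of Jerome, 6 with no filter); leaving out libraries in that test was added after the data were seen.

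Each log2 difference was recomputed under 14 alternatives, 378 values in all, and none changed sign. The genes were picked for a difference of at least 2-fold in these same libraries, which made a change of sign unlikely from the start. The constant sign is therefore a description only. In 3 the value moved by more than the spread between libraries: PLD2 was -0.77 and CYP2S1 -1.07 without the cat Sadie, and ALOX5AP was 0.87 without the cat Bart. Leaving out a library or cat took 12 of the 27 genes under 2-fold, among them PLD4 (0.61 without the healthy mucosa of Bart), LPCAT4 (0.92 without the lesion of Bart) and HSD11B1L (-0.77 without the healthy mucosa of Jerome). With 1 library per cat and tissue, technical error was not measured, and reads per library are unknown.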
